A study of Mus musculus with 12 samples.

Results

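Expression of 34 genes of sterol and fatty acid synthesis was followed in mouse B cell acute lymphoblastic leukemia (B-ALL) cells with and without stabilized β-catenin, on 2 genetic backgrounds. The genes were taken from a list of 35 names by gene symbol. All but Tm7sf2, which encodes a sterol reductase, had a row in the deposited table of 12151 genes, and each of the 34 had exactly 1 row. No member was removed for low values. By role, 17 of the genes encode enzymes that build cholesterol from acetyl units (7 up to farnesyl diphosphate and 10 from squalene onward), 4 make fatty acids, 7 elongate or desaturate them, and 6 regulate the pathway or carry sterol.

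The 12 RNA libraries were made from pre-B cells of Ctnnb1 Ex3fl/+ mice aged 6 to 12 weeks, and the cells had been transformed with the oncogene BCR-ABL1. In these mice exon 3 of 1 copy of the β-catenin gene lies between loxP sites, and its removal by Cre yields a protein that escapes degradation. Cells of the WT groups had received Cas9 with nontargeting guides and those of the KO groups Cas9 with guides against Ikzf1 and Ikzf3, which encode the B lymphoid transcription factors Ikaros and Aiolos. Lines were grown from single edited cells and transduced either with ERT2, the tamoxifen-binding domain alone, or with Cre-ERT2, whose Cre is switched on by 4-hydroxytamoxifen (4-OHT), and GFP+ cells were sorted. This gave 4 groups of 3 libraries, the controls ERT2 WT and ERT2 KO and their counterparts with stabilized β-catenin, Cre-ERT2 WT and Cre-ERT2 KO. All groups carried BCR-ABL1 and the same floxed allele, and per the labels the cells were studied 1 day after 4-OHT, in wording written for another assay. Which clone each library came from is not stated, so the edited genotype and the choice of clone cannot be told apart, and p-values measure only the spread between these libraries, which may be technical. No group carried Cre-ERT2 without the floxed allele, so stabilized β-catenin cannot be told apart from active Cre or the separate transduction. Effects named after β-catenin below are differences of Cre-ERT2 from ERT2 libraries.

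Cells make cholesterol from acetyl-CoA through mevalonate, isoprenoid diphosphates, squalene and lanosterol, and they make fatty acids from the same acetyl-CoA through malonyl-CoA. Genes of both branches are targets of the SREBP transcription factors, which the sensor Scap escorts out of the endoplasmic reticulum when sterol is scarce and the Insig proteins hold back when it is plentiful. SREBP2, encoded by Srebf2, is known mainly for the sterol branch and SREBP1, encoded by Srebf1, mainly for the fatty acid branch, and the promoters of their targets often pair a sterol response element with an NF-Y or Sp1 site. In B cells the pathways supply membrane for proliferation.

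Values are the log2 expression values that the authors deposited, normalized between libraries. A difference is a subtraction of group means of log2 values, so that a difference of 1 is a doubling, and levels are compared between libraries only, never between genes. A gene was called at a limma adjusted p under 0.05, corrected over all 12151 genes. The table holds no counts, so sequencing depth is unknown. Library medians lay between 9.06 and 9.11. The pre-B markers were all present (9 of 9), while the T cell, erythroid and stromal markers looked for had no row, and of 6 myeloid markers only Lyz2 and Itgam had one. The edited genes were a mixed check of the labels. Ikzf3 was lower in the libraries labelled KO (10.97 to 11.34) than in WT (11.59 to 11.93), and Ikzf1 was higher (14.56 to 14.76 against 13.66 to 13.75). A gene-level RNA value does not show whether a reading frame was disrupted, so "KO" stands below for the libraries labelled so. Ctnnb1 RNA, which does not report protein stability, rose by 0.13 on the log2 scale (SE 0.025, limma adjusted p = 0.00407) upon Cre-ERT2 in KO and was not called in WT.

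Before the values, promoter sequence is shown for 4 of the 5 sterol enzymes that were lower both upon β-catenin stabilization in WT and in the ERT2 libraries labelled KO, and, for contrast, for Fasn and Acly, fatty acid genes with other patterns. Each sequence is the 200 bases before the annotated start site, from RefSeq on GRCm38.p6, read 5′ to 3′ on the gene's strand. Capitals mark matches to CCAAT, the core of an NF-Y site, and to TCACNCCAC, a form of the sterol response element, in either orientation, so that a reverse CCAAT reads ATTGG.
Hmgcs1 (chr13:119690151-119690350, plus strand): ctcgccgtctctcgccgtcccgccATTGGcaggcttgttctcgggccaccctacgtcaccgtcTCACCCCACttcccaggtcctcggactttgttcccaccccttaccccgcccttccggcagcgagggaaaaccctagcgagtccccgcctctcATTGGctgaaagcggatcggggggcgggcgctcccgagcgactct
Mvk (chr5:114444069-114444268, plus strand): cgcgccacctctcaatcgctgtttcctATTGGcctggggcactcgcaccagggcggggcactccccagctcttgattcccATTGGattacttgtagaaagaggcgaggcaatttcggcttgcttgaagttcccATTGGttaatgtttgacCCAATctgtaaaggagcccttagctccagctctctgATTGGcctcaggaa
Mvd (chr8:122443423-122443622, minus strand): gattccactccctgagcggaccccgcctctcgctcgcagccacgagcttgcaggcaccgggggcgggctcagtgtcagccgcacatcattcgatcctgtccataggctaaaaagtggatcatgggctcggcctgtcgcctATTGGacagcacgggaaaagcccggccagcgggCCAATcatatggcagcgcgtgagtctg
Ebp (chrX:8193513-8193712, minus strand): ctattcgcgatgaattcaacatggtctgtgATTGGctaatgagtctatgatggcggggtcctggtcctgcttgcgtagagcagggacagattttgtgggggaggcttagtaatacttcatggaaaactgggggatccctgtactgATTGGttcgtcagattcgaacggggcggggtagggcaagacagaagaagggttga
Fasn (chr11:120824548-120824747, minus strand): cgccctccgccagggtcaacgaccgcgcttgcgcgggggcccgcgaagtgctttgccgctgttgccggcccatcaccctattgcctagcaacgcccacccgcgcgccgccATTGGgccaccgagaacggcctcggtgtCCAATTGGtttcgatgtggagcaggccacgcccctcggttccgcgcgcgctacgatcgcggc
Acly (chr11:100528001-100528200, minus strand): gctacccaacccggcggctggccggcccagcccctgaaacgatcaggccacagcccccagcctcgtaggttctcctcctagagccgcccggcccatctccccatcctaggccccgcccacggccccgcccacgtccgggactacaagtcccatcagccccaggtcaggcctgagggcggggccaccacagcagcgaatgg

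The Mvk stretch holds 5 CCAAT matches, Fasn holds 3 (a pair of them overlapping on opposite strands), Hmgcs1, Mvd and Ebp hold 2 each, and Acly none. In the whole 300-base window, which runs from 250 bases before to 50 after the start, RefSeq gave a promoter for 27 of the 34 genes, some with several starts, 36 windows in all. CCAAT on either strand was found in 76.5% of the sterol enzyme windows (13 of 17), in 52.6% of the windows of the other members and in 38.3% of the 10927 windows of all genes in the table that had one. By gene, 13 of 14 sterol enzymes had at least 1 match, against 3745 of 8566 genes in the table that had a promoter. Of the 31 matches in sterol enzymes 22 began within 150 bases before the start. No count over all promoters stands beside these positions, so they are not read as particular to these genes. The GC box GGGCGG was present in 82.4% of sterol enzyme windows against 62.9% of all windows, at a median GC content of 61.3% against 60.7%. TCACNCCAC occurred in 1 member window, that of Hmgcs1, and in 1.12% of all windows. The E-box CACGTG was in 19.4% of member windows and 10.2% of all. The Ikaros core GGGAA was in 63.9% of member windows against 64.5% of all, and the TCF/LEF core CTTTGA in 11.1% against 11.9%. Matches of different motifs overlapped at 4 places in the member windows. A match here describes letters in a window and not a bound site, and no binding was measured in these libraries.

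**Figure D1:**
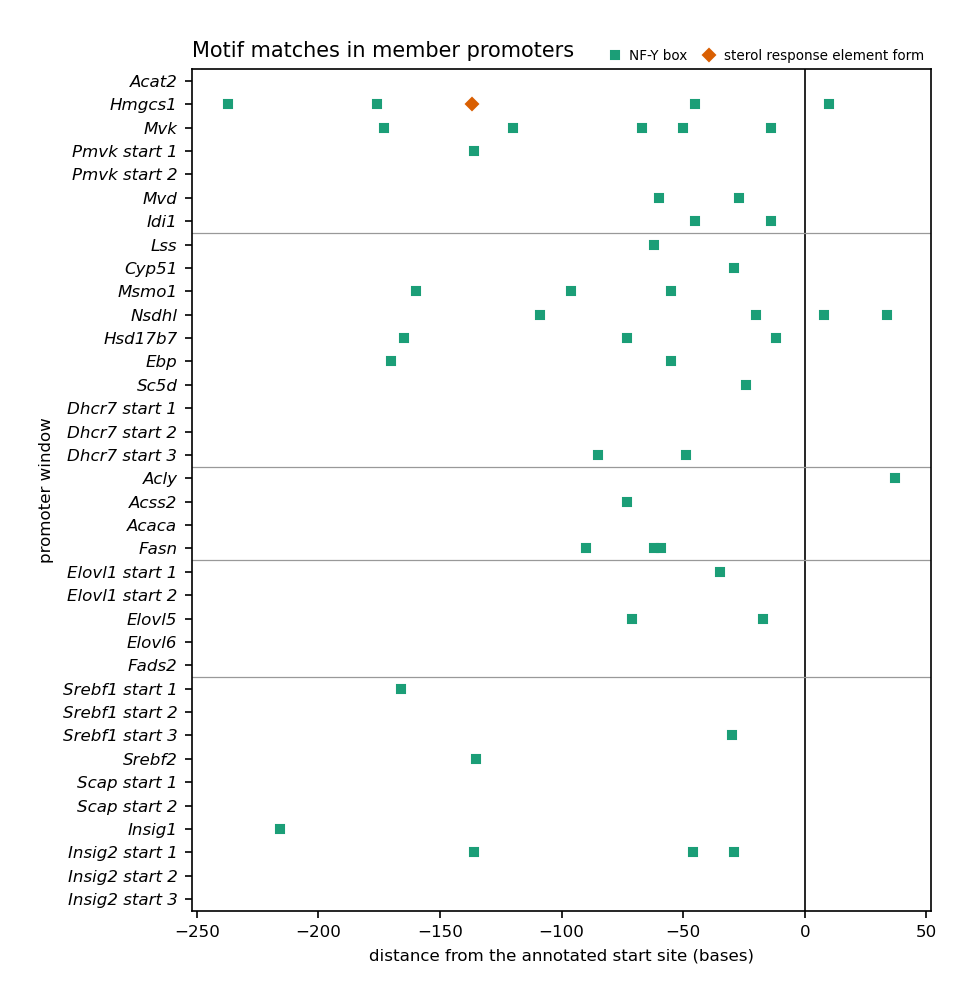
Positions of NF-Y boxes (squares) and of the sterol response element form (diamond) in 36 promoter windows of 27 member genes; the x axis is the distance of a match's first base from the annotated start site in bases, and horizontal lines part the roles. The 13 sterol enzyme windows with an NF-Y box carry 31 matches, mostly close before the start, and the only diamond is in Hmgcs1 at -137.

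The first question was how the genes differ between WT and KO without stabilized β-catenin. In the ERT2 libraries the sterol branch was lower in KO nearly throughout. Of the 17 sterol enzymes 15 fell, 1 rose (Pmvk) and Lss was not called, with a median difference of -0.290 against 0.002 over all genes. The desaturases Scd1 and Scd2 and the regulator Srebf1 went the other way, with rises of 1.48-fold to 1.81-fold. Over the 34 genes 22 fell and 7 rose. The background was large, since 29.3% of all genes tested fell and 29.8% rose.

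Among the mevalonate enzymes, Idi1, which isomerizes isopentenyl diphosphate, fell most. Its values were 12.15, 12.17 and 12.19 in ERT2 WT, 12.06, 12.12 and 12.09 in Cre-ERT2 WT, 11.61, 11.48 and 11.45 in ERT2 KO, and 11.52, 11.58 and 11.70 in Cre-ERT2 KO. All KO libraries lay below all WT libraries, and the 2 KO groups overlapped. The difference in ERT2 libraries was -0.65 (SE 0.046, limma adjusted p = 8.18e-08), or 1.57-fold lower. Hmgcs1, the cytosolic HMG-CoA synthase whose promoter holds the sterol response element form, ranged from 11.99 to 12.12 in ERT2 WT and from 11.57 to 11.61 in ERT2 KO, a fall of 1.39-fold (difference -0.47, SE 0.028, limma adjusted p = 1.67e-08). The 4 other enzymes of this stretch that fell did so by less, namely Mvk (mevalonate kinase) at -0.30, Mvd (mevalonate diphosphate decarboxylase) at -0.28, Fdps (farnesyl diphosphate synthase) at -0.24 and Acat2 (cytosolic thiolase) at -0.12. Pmvk, phosphomevalonate kinase, was the exception and rose by 0.20 (SE 0.038, limma adjusted p = 6.26e-04).

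From squalene onward 9 of 10 enzymes fell and none rose. Hsd17b7, a sterol ketone reductase, showed the largest fall of any member. It stood at 9.79, 9.76 and 9.72 in ERT2 WT, 9.64, 9.75 and 9.67 in Cre-ERT2 WT, 9.06, 9.05 and 8.95 in ERT2 KO, and 9.21, 8.90 and 8.93 in Cre-ERT2 KO. The WT and KO libraries were separated by a gap wider than the range of any group. The fall in ERT2 libraries was 1.67-fold (difference -0.74, SE 0.068, limma adjusted p = 1.05e-06).

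Cyp51, the lanosterol demethylase, measured 11.72, 11.79 and 11.86 in ERT2 WT, 11.70, 11.65 and 11.73 in Cre-ERT2 WT, 11.28, 11.28 and 11.26 in ERT2 KO, and 11.34, 11.36 and 11.35 in Cre-ERT2 KO. Again no KO library reached a WT library. Its difference in ERT2 libraries was -0.52 (SE 0.031, limma adjusted p = 1.67e-08). Squalene synthase (Fdft1, -0.47), squalene epoxidase (Sqle, -0.42) and the methylsterol oxidase Msmo1 (-0.45) were close behind. Smaller falls were seen for Ebp (-0.29), Nsdhl (-0.28), Dhcr7 (-0.22) and Sc5d (-0.17), which act late in the pathway. Lanosterol synthase (Lss) had the widest replicate scatter of the enzymes, from 9.89 to 10.15 in ERT2 KO and from 9.82 to 10.18 in Cre-ERT2 WT, and its difference of -0.22 (SE 0.089) was not called (limma adjusted p = 0.0529).

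The fatty acid enzymes were split. Acly, which releases cytosolic acetyl-CoA from citrate, rose by 0.24 (SE 0.022, limma adjusted p = 1.11e-06), and Acss2, which makes it from acetate, rose by 0.20. The next steps were lower, with Acaca, acetyl-CoA carboxylase, at -0.16 (SE 0.031, limma adjusted p = 6.68e-04). Fasn, fatty acid synthase, stood at 11.77, 11.74 and 11.65 in ERT2 WT and at 11.40, 11.65 and 11.53 in ERT2 KO. The highest KO library came level with the lowest WT library at 2 decimals. The difference was -0.19 (SE 0.054, limma adjusted p = 0.00789), beside replicate SDs of 0.061 in ERT2 WT and 0.13 in ERT2 KO.

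Desaturation carried the largest rises. Scd1, a stearoyl-CoA desaturase that makes monounsaturated fatty acids, had values of 13.28, 13.39 and 13.29 in ERT2 WT, 13.34, 13.36 and 13.31 in Cre-ERT2 WT, 14.13, 14.15 and 14.24 in ERT2 KO, and 14.32, 14.33 and 14.43 in Cre-ERT2 KO. Its paralog Scd2 followed with 14.38, 14.46 and 14.47 in ERT2 WT, 14.28, 14.28 and 14.26 in Cre-ERT2 WT, 15.16, 15.16 and 15.23 in ERT2 KO, and 15.22, 15.20 and 15.23 in Cre-ERT2 KO. For both genes every KO library exceeded every WT library. In ERT2 libraries Scd1 rose 1.81-fold (difference 0.86, SE 0.038, limma adjusted p = 7.77e-10) and Scd2 rose 1.67-fold (difference 0.74, SE 0.026, limma adjusted p = 8.34e-11). The 2 genes lie close together on chromosome 19 of GRCm38 (Scd1 at 44394455 to 44407879, Scd2 at 44293674 to 44306864) and are similar in sequence, so reads may have been divided between them. Fads1, the Δ5 desaturase, rose by 0.32, whereas Fads2, the Δ6 desaturase, fell by 0.16. Of the elongases Elovl5 fell by 0.15, and Elovl1 (-0.04) and Elovl6 (0.05) were not called.

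The genes of the 2 SREBP proteins differed in direction. Srebf1 measured 10.89, 11.12 and 11.00 in ERT2 WT, 10.94, 10.93 and 10.94 in Cre-ERT2 WT, 11.47, 11.64 and 11.60 in ERT2 KO, and 11.77, 11.79 and 11.77 in Cre-ERT2 KO. Srebf2 measured 12.77, 12.75 and 12.77 in ERT2 WT, 12.73, 12.70 and 12.63 in Cre-ERT2 WT, 12.42, 12.34 and 12.41 in ERT2 KO, and 12.45, 12.38 and 12.30 in Cre-ERT2 KO. WT and KO were apart for both genes, in opposite directions. In ERT2 libraries Srebf1 rose 1.48-fold (difference 0.56, SE 0.051, limma adjusted p = 9.31e-07), and Srebf2 fell 1.29-fold (difference -0.37, SE 0.037, limma adjusted p = 2.23e-06). The SREBP escort Scap fell by 0.30 and the sterol carrier Stard4 by 0.22. Insig1 was not called in any comparison, with values of 10.59, 10.61 and 10.74 in ERT2 WT, 10.71, 10.57 and 10.62 in Cre-ERT2 WT, 10.54, 10.55 and 10.61 in ERT2 KO, and 10.66, 10.65 and 10.64 in Cre-ERT2 KO. Insig2 stood at 8.78, 8.73 and 8.84 in ERT2 WT, 8.69, 8.54 and 8.59 in Cre-ERT2 WT, 8.77, 9.00 and 8.90 in ERT2 KO, and 8.89, 8.91 and 8.79 in Cre-ERT2 KO. The ERT2 groups of both Insig genes overlapped.

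**Figure D2:**
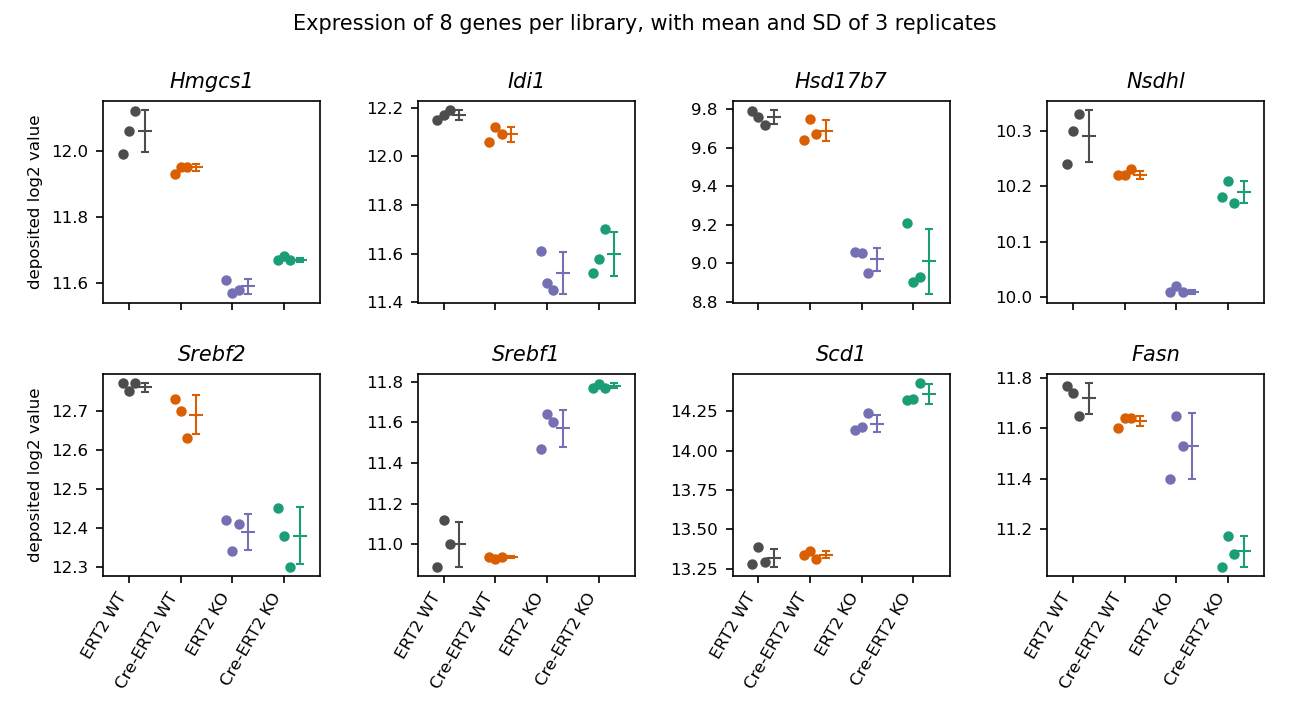
Deposited log2 values of 8 genes (y axes, each on its own range that does not start at 0) in the 4 groups (x axis); points are single libraries and the bar beside them is the mean with the SD of 3 replicates. Hmgcs1, Idi1, Hsd17b7 and Srebf2 are lower and Srebf1 and Scd1 higher in KO than in WT with either vector, Nsdhl was called lower in KO only with ERT2, and Fasn is lowest in Cre-ERT2 KO, between 11.05 and 11.17.

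The same question was put to the Cre-ERT2 libraries, where β-catenin was stabilized on both backgrounds and no library was shared with the ERT2 comparison. The lines were edited before they received a vector, so the same clones may lie behind both comparisons. Both also use 1 estimate of the spread from all 12 libraries. There 14 of the 34 genes fell and 9 rose, at a background of 28.6% of all genes that fell and 30.4% that rose. All 7 genes that had risen in the ERT2 comparison rose here as well (Acly, Acss2, Fads1, Pmvk, Scd1, Scd2 and Srebf1), and Insig2 rose by 0.25 (SE 0.057, limma adjusted p = 0.00204). Of the 22 that had fallen, 14 fell again, 7 were not called and Acat2 rose by 0.09 (SE 0.032, limma adjusted p = 0.0284). The call of Acat2 was lost without replicate 2 or 3 of Cre-ERT2 WT or replicate 1 or 2 of Cre-ERT2 KO, and that of Sc5d (-0.09, limma adjusted p = 0.0484) without any of 9 of the 12 libraries, the exceptions being replicate 3 of ERT2 WT, replicate 2 of ERT2 KO and replicate 3 of Cre-ERT2 KO. Scd1 was 2.03-fold higher (difference 1.02, SE 0.038), Scd2 1.92-fold higher (0.94, SE 0.026) and Srebf1 1.79-fold higher (0.84, SE 0.051). Hsd17b7 was 1.60-fold lower (-0.68, SE 0.068) and Idi1 1.40-fold lower (-0.49, SE 0.046).

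The sterol enzymes as a group were less far apart than in ERT2 libraries, with 10 of 17 that fell, 2 that rose and a median of -0.126. Mvd (-0.05), Fdps (-0.06), Nsdhl (-0.04) and Dhcr7 (-0.04) were among the 7 genes no longer called, as were Acaca, Fads2 and Stard4. Fasn differed more here, at 11.60, 11.64 and 11.64 in Cre-ERT2 WT against 11.05, 11.17 and 11.10 in Cre-ERT2 KO. These groups were well apart, and the fall was 1.43-fold (difference -0.52, SE 0.054, limma adjusted p = 3.24e-06).

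**Figure D3:**
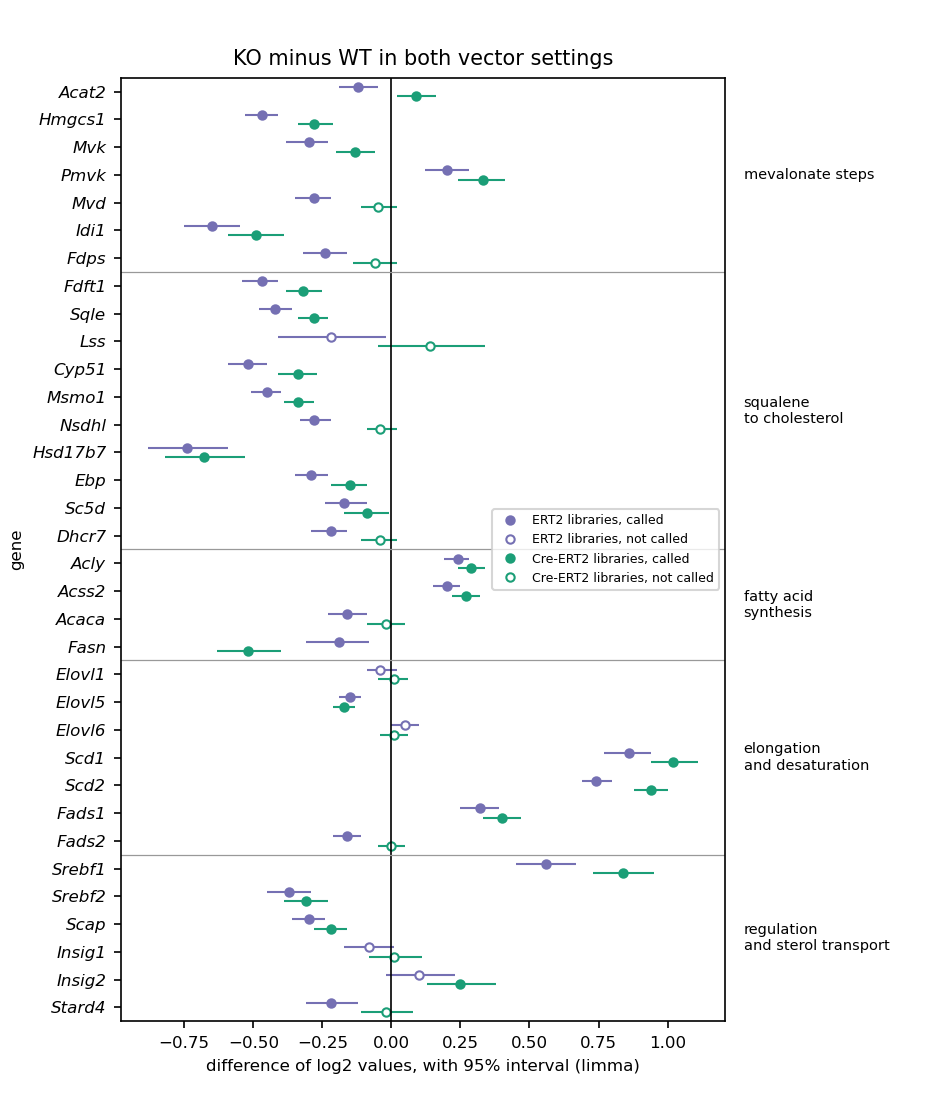
Difference of log2 values between KO and WT (x axis) for each member (y axis), in ERT2 and in Cre-ERT2 libraries; bars are 95% limma intervals and filled points passed an adjusted p of 0.05. Most sterol enzymes lie left of 0 and most of those lie farther left in ERT2 libraries, Scd1, Scd2 and Srebf1 lie between 0.56 and 1.02, and Fasn lies farther left in Cre-ERT2 libraries.

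Several features moved with the KO label besides these genes. The library medians were higher in KO by 0.032 (ERT2) and 0.034 (Cre-ERT2). With every library centred on its median, 25 members fell and 7 rose in ERT2 libraries, at 4747 and 2866 of all genes, and 18 fell and 8 rose in Cre-ERT2 libraries, at 4789 and 2983 of all genes. The summed level of the pre-B markers ran from 16.55 to 16.61 (log2) in WT and from 16.17 to 16.26 in KO, with Cd79a, a chain of the B cell receptor, lower by 0.79 and Vpreb1, a surrogate light chain, by 0.54 in ERT2 libraries. The summed level of the 2 myeloid markers ran from 7.57 to 7.62 in WT and from 8.45 to 8.76 in KO, where Lyz2 was higher by 0.99 and Itgam was lower by 0.15 in ERT2 libraries, and Csf1r, Mpo, Elane and S100a8 had no row. The part of these shifts in the results above was not tested, and in bulk RNA fewer cells of a type and less RNA per cell cannot be told apart. Myc, a driver of cell growth, was higher in KO by 1.10 (SE 0.019) in ERT2 libraries and by 1.41 (SE 0.019) in Cre-ERT2 libraries.

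The second question was how Cre-ERT2 cells, with stabilized β-catenin, differed from ERT2 cells in WT. Cre-ERT2 libraries were lower than ERT2 libraries in many of these genes, by small amounts. Among the 34 genes 8 fell and none rose, where 5.95% of all genes fell and 5.93% rose. The 2 groups of 3 libraries did not overlap in 20 genes that were lower and in 1 that was higher (Elovl5), against 15.9% and 15.2% of all genes. All 17 sterol enzymes had negative differences, from -0.24 to -0.04, with a median of -0.095 against 0.000 over all genes, and 5 of them fell (Hmgcs1, Mvk, Mvd, Fdps and Ebp). The remaining 3 falls were those of Acly, Elovl1 and Scd2.

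Fdps, which makes farnesyl diphosphate, fell most among the sterol enzymes called. It measured 11.47, 11.49 and 11.53 in ERT2 WT, 11.34, 11.28 and 11.32 in Cre-ERT2 WT, 11.23, 11.28 and 11.25 in ERT2 KO, and 11.24, 11.34 and 11.17 in Cre-ERT2 KO. Of the 2 vector pairs only the WT pair was apart, at a difference of -0.18 (SE 0.037, limma adjusted p = 0.00632), or 1.13-fold lower. Mvd went from 8.73, 8.71 and 8.67 in ERT2 WT to 8.56, 8.58 and 8.50 in Cre-ERT2 WT, a difference of -0.15 (SE 0.030, limma adjusted p = 0.00546). Scd2 fell by 0.16 (SE 0.026, limma adjusted p = 0.00131), while Scd1 differed by 0.02 (SE 0.038) and was not called.

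Elovl1, an elongase of long saturated fatty acids, had 10.60, 10.62 and 10.56 in ERT2 WT and 10.44, 10.44 and 10.45 in Cre-ERT2 WT. In KO it had 10.59, 10.52 and 10.56 with ERT2 and 10.47, 10.43 and 10.44 with Cre-ERT2. Both backgrounds showed the same separation, and Elovl1 was the only member called upon β-catenin stabilization on both, at -0.15 in WT (SE 0.025, limma adjusted p = 0.00155) and -0.11 in KO (SE 0.025, limma adjusted p = 0.0141). The larger difference of Lss in WT (-0.24) was not called (SE 0.089, limma adjusted p = 0.103), since replicate 2 of Cre-ERT2 WT, at 10.18, lay among the ERT2 libraries. None of the 6 regulators and carriers was called. Without replicate 3 of ERT2 WT 5 members were called in place of 8, and Hmgcs1, Mvk and Acly were lost. Hmgcs1 was also lost without replicate 2 of ERT2 WT or any Cre-ERT2 WT library, Acly without replicate 2 of ERT2 WT or replicate 2 or 3 of Cre-ERT2 WT, Mvk without replicate 2 of Cre-ERT2 WT, and Ebp without replicate 1 of ERT2 WT or replicate 2 of Cre-ERT2 WT. An exact 2-sided permutation test of single genes with 3 against 3 libraries cannot go below p = 0.1, which Fdps, Mvd, Scd2 and Elovl1 each reached. Any gene whose 2 groups do not overlap reaches it, which holds for the 15.9% and 15.2% of all genes given above. Idi1 and Fasn, which were not called, reached it too, so the test adds nothing to the calls.

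The third question was how Cre-ERT2 cells, with stabilized β-catenin, differed from ERT2 cells in KO. There 6 of the 34 genes rose and 2 fell, where 7.27% of all genes rose and 5.33% fell, so that the share of rises was above and the share of falls near the background. The rises were those of Srebf1, Scd1, Nsdhl, Fads2, Acat2 and Dhcr7. Of the 17 sterol enzymes 3 rose and none fell, 15 had positive differences, and the median was 0.062 against 0.000 over all genes. Fasn and Elovl1 fell.

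Fasn showed the largest difference of any member upon β-catenin stabilization. Its KO libraries, given above, ran from 11.40 to 11.65 with ERT2 and from 11.05 to 11.17 with Cre-ERT2, without overlap, a fall of 1.34-fold (difference -0.42, SE 0.054, limma adjusted p = 2.15e-04) that ranked 12 from the lowest among all 12151 genes. Srebf1 rose by 0.21 (SE 0.051, limma adjusted p = 0.017), with the Cre-ERT2 KO libraries, from 11.77 to 11.79, all above the ERT2 KO libraries, from 11.47 to 11.64. Without replicate 1 of ERT2 KO or without replicate 2 of Cre-ERT2 KO, Srebf1 and Elovl1 were not called and 5 members were called in all. Acat2 was lost without replicate 2 or 3 of ERT2 KO or replicate 1 or 2 of Cre-ERT2 KO, and Dhcr7 (0.10, limma adjusted p = 0.0477) without any of 11 of the 12 libraries, the exception being replicate 3 of Cre-ERT2 KO. Scd1 rose by 0.18 (SE 0.038, limma adjusted p = 0.00626). Nsdhl, a sterol dehydrogenase, had 10.24, 10.30 and 10.33 in ERT2 WT, 10.22, 10.22 and 10.23 in Cre-ERT2 WT, 10.01, 10.02 and 10.01 in ERT2 KO, and 10.18, 10.21 and 10.17 in Cre-ERT2 KO. The Cre-ERT2 KO values came close to the WT values from below, and the rise within KO was 0.18 (SE 0.026, limma adjusted p = 6.01e-04).

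**Figure D4:**
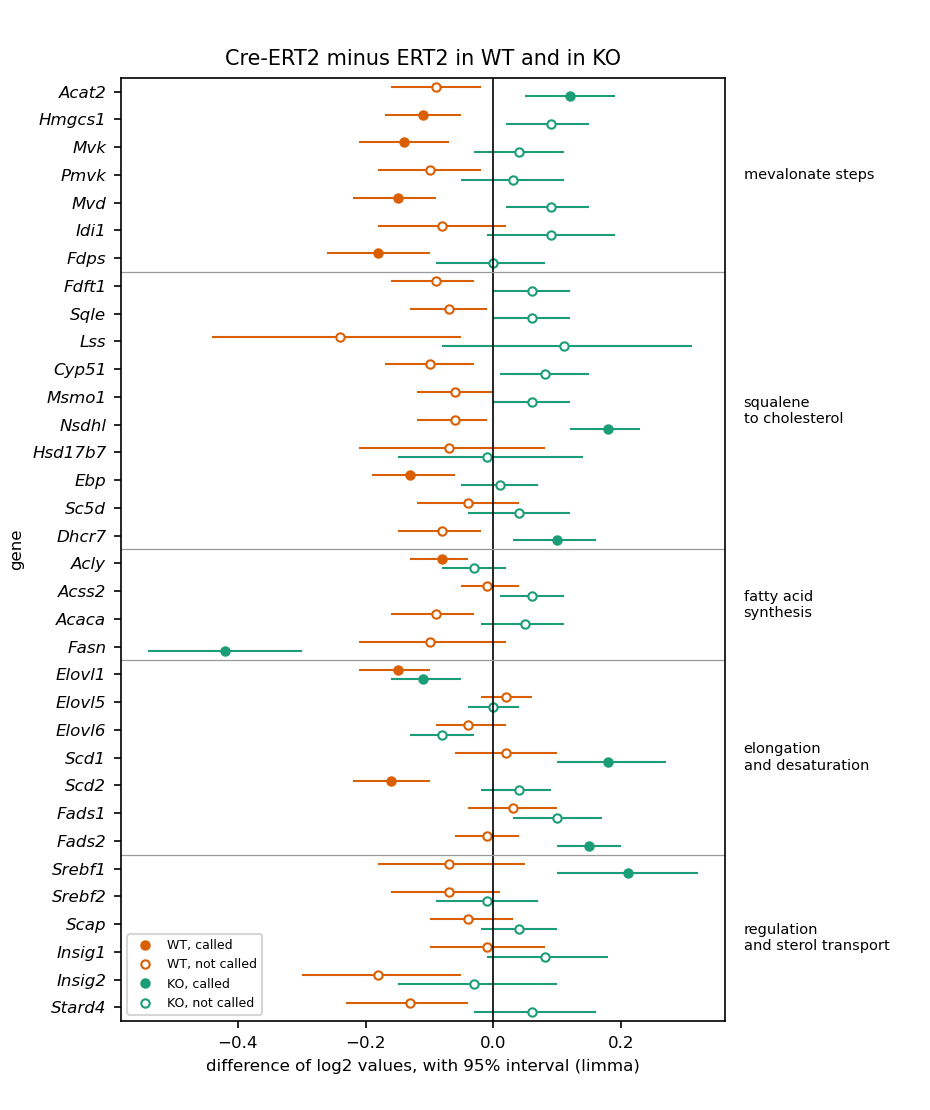
Difference of log2 values between Cre-ERT2 and ERT2 libraries (x axis) for each member (y axis), in WT and in KO; bars are 95% limma intervals and filled points passed an adjusted p of 0.05. In the 17 sterol enzymes the WT points lie left of 0 and 15 of the KO points right of it, and Fasn in KO lies alone at -0.42.

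The last question was whether the effect of β-catenin differed between KO and WT, tested as the difference of both differences. It was higher in KO for 9 of the 34 genes and lower for 1, where 2.71% and 1.82% of all genes were called. All 17 sterol enzymes had positive values, from 0.06 to 0.36 with a median of 0.178 against 0.001 over all genes, and 7 were called (Acat2, Hmgcs1, Mvk, Mvd, Cyp51, Nsdhl and Dhcr7). The other 2 called higher were the desaturases Scd2 and Fads2, and Fasn was the 1 called lower. The same values also state how far the KO against WT difference changed from ERT2 to Cre-ERT2 libraries.

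Nsdhl had the largest called value, 0.24 (SE 0.036, limma adjusted p = 0.00234), from -0.06 in WT and 0.18 in KO. Mvd had 0.24 (SE 0.043, limma adjusted p = 0.00691), from -0.15 in WT and 0.09 in KO, where its libraries were 8.42, 8.42 and 8.42 with ERT2 and 8.49, 8.55 and 8.47 with Cre-ERT2. Acat2 had 0.21 (SE 0.045, limma adjusted p = 0.0207). Its libraries were 10.41, 10.45 and 10.51 in ERT2 WT, 10.40, 10.35 and 10.36 in Cre-ERT2 WT, 10.39, 10.31 and 10.33 in ERT2 KO, and 10.47, 10.48 and 10.42 in Cre-ERT2 KO. The order of the vectors was opposite on the 2 backgrounds, and in neither did the groups overlap. Fasn had -0.32 (SE 0.076, limma adjusted p = 0.0334), from -0.10 in WT and -0.42 in KO. The calls of Nsdhl, Mvd, Hmgcs1, Scd2 and Fads2 held whichever library was left out. Acat2 was lost without any of 5 libraries (replicates 2 and 3 of Cre-ERT2 WT and of ERT2 KO, and replicate 2 of Cre-ERT2 KO), and Fasn without any of 9, the exceptions being replicate 1 of ERT2 WT and of ERT2 KO and replicate 2 of Cre-ERT2 KO. Mvk, Cyp51 and Dhcr7 were each lost without any of 10, the exceptions being Cre-ERT2 WT 1 and Cre-ERT2 KO 2 for Mvk, ERT2 WT 1 and Cre-ERT2 WT 3 for Cyp51, and Cre-ERT2 WT 3 and Cre-ERT2 KO 3 for Dhcr7. The count of 10 went down to 6 without replicate 2 or replicate 3 of ERT2 WT and to 5 without replicate 3 of ERT2 KO. Srebf1 (0.28, SE 0.072, limma adjusted p = 0.0519) and Fdft1 (0.16, SE 0.041, limma adjusted p = 0.0518) missed the threshold. Srebf2 had 0.06 (SE 0.052) and Scap 0.08 (SE 0.039), and neither was called. Myc, which is no member, fell by 0.62 in WT and by 0.31 in KO, and its difference of effects was 0.31 (SE 0.027, limma adjusted p = 2.70e-05).

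**Figure D5:**
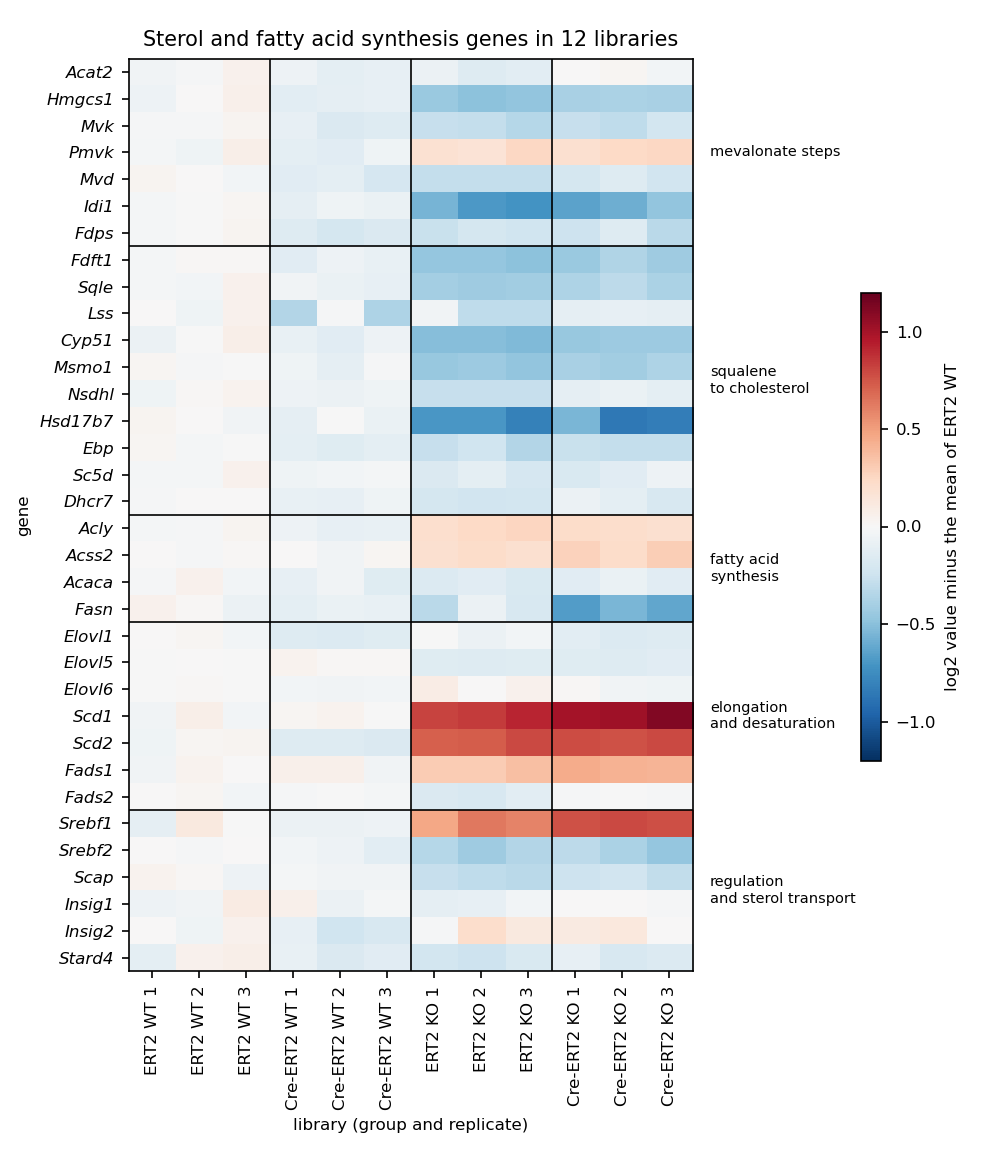
Log2 value of each member (rows, by role) in each of the 12 libraries (columns) minus its mean in ERT2 WT, as color from blue (lower) to red (higher). Sterol enzymes except Pmvk turn blue in ERT2 KO, and all but Pmvk and Acat2 in Cre-ERT2 KO, deepest for Hsd17b7 and Idi1, while Scd1, Scd2 and Srebf1 turn red, and Fasn is deepest in the 3 Cre-ERT2 KO libraries.

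The median of the 17 sterol enzymes varied little between libraries of a group, although single enzymes ranged widely around it. This median relative to the ERT2 WT mean was -0.11, -0.10 and -0.09 in the Cre-ERT2 WT libraries, -0.28, -0.29 and -0.35 in ERT2 KO, and -0.27, -0.28 and -0.29 in Cre-ERT2 KO. By that measure the 2 KO groups overlapped, and all 6 KO libraries lay below all 6 WT libraries. The fatty acid enzymes gave no such picture, with medians from -0.09 to 0.07 over the 9 libraries outside ERT2 WT.

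Lists of neighboring pathways were less uniform. Of 19 other sterol genes 10 fell and 4 rose in KO with ERT2, at a median of -0.065, and upon β-catenin stabilization in WT 3 fell and none rose. Npc2, which moves cholesterol out of lysosomes, fell by 0.62 in KO with ERT2. Among 9 sterol efflux and LXR genes 5 rose and 3 fell, with Rxra, the partner of LXR, up by 0.97, the exporter Abcg1 up by 0.76 and Arl4c down by 0.65. Of 23 further fatty acid genes 10 rose and 7 fell, with the elongase Elovl7 up by 0.88. Fatty acid oxidation genes mostly rose, 13 of 21 against 3 that fell, with the nuclear receptor gene Ppard up by 0.88, and in the Cre-ERT2 libraries 14 rose and 2 fell. Upon β-catenin stabilization in KO cells Acsl4, which activates polyunsaturated fatty acids, rose by 0.50 (SE 0.040, limma adjusted p = 3.42e-06) and had risen by 0.33 in WT, and at most 2 genes in each direction were called in any of the 4 lists. Those shares are to be read against the percentages of all genes given above.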

How the data were processed

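RNA-seq libraries were prepared by the authors from 280 ng of total RNA each with a stranded poly(A) kit and 10 PCR cycles. Per the labels and the submitters' processing notes, reads were processed with Salmon 1.4.0, STAR 2.7.6 and DESeq2 1.30.1 on mm10 (GRCm38), and the study names GENCODE release M24. The authors deposited log2 values of 12151 genes in each library, already normalized, by a transformation that is not given in the sources used here. If it compressed low levels, differences of genes with little expression are too small here. Counts are not in the table used here, so no count model was run, and 0 sample columns were left unused.

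Groups were taken from the sample titles. The log2 values of all genes in the 12 libraries were modelled by the 4 group means, without covariates, in limma 3.58.1 under R 4.3.3 (eBayes with a mean-dependent prior), and 5 contrasts were taken with Benjamini-Hochberg adjustment over 12151 genes, at a threshold of 0.05. The unit was log2 already, so no pseudocount was added, and the script was tested on simulated data. KO against WT and β-catenin contrasts share libraries, while both KO contrasts and both β-catenin contrasts share none. No 2 libraries of a group held identical values. Motifs were searched on both strands of RefSeq windows from 250 bases before to 50 after each start (GRCm38.p6), and gene positions are from GENCODE release M21. Tables were made with Python 3.11.15, pandas 2.3.3 and numpy 2.4.6.

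The genes and lists were chosen with earlier results of these data known. Values per library are printed for Fasn, Scd1, Scd2, Srebf1, Srebf2, Insig1 and Insig2 and, in each contrast, for the 3 called genes with the largest rise and the 3 with the largest fall. Outside the members, Ikzf1, Ikzf3, Ctnnb1, Myc and called genes of the other lists with a difference of at least 0.5 are named. Acsl4 is named too, although its 0.50 upon β-catenin stabilization in KO is rounded up from just below 0.5. Replicate numbers were checked as pairs. Correlations over genes of the deviations of same-numbered libraries from their group means ran from -0.0395 to 0.244. The numbers were not used as a block in the main fit. Alternatives were median centring, quantile normalization, a pseudocount of 1 on unlogged values, a filter on low means, no trend in the prior, a replicate block, only the 6 libraries of a contrast, a threshold of 0.01 and leaving out each library.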

Additional observations from a re-analysis of the deposited data

Results flagged for a closer look

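The effect of β-catenin stabilization differed between KO and WT, by limma's test of the difference itself at an adjusted p under 0.05, in 10 of the 34 genes. Among the mevalonate enzymes the effect was higher in KO by 0.21 on the log2 scale for Acat2 (SE 0.045), by 0.20 for Hmgcs1 (SE 0.040), by 0.18 for Mvk (SE 0.046) and by 0.24 for Mvd (SE 0.043). Among the later sterol enzymes it was higher by 0.18 for Cyp51 (SE 0.044), by 0.24 for Nsdhl (SE 0.036) and by 0.18 for Dhcr7 (SE 0.042). The desaturases Scd2 and Fads2 had values of 0.20 (SE 0.037) and 0.16 (SE 0.032). Fasn was the 1 gene with a lower effect in KO, at -0.32 (SE 0.076). Nsdhl, Mvd, Hmgcs1, Scd2 and Fads2 passed in each alternative that kept the threshold at 0.05 and in which they were tested, which leaves out the filter on low means for Mvd. Mvk, Cyp51, Dhcr7, Acat2 and Fasn each lost the call when 1 of several libraries was left out, and Mvk, Cyp51 and Dhcr7 lost it under other alternatives as well.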

How the results depend on the processing

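Over the 5 comparisons no called difference changed sign under any alternative. The filter on low means tested 29 of the 34 genes and left out Mvk, Pmvk, Mvd, Acss2 and Insig2. In KO against WT with ERT2 each of the 29 calls held under the alternatives at a threshold of 0.05 in which its gene was tested. With Cre-ERT2 this was so for 21 of 23 calls, the exceptions being Acat2 and Sc5d. Leaving out single libraries gave 5 to 10 calls for the β-catenin effect in WT (8 in all libraries), 5 to 8 for that in KO (8), 29 to 31 for KO against WT with ERT2 (29), 21 to 23 with Cre-ERT2 (23) and 5 to 10 for the difference of the β-catenin effect (10). At an adjusted p under 0.01 the β-catenin effect had 4 calls in WT and 4 in KO, and the difference of effects had 3. With only the 6 libraries of the contrast, the β-catenin effect in KO had 5 calls. The cause of these changes was not tested beyond the fewer libraries and the stricter threshold that they use.

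It is not known whether replicate numbers pair the libraries, as the labels do not say how replicates were made. With the replicate block 11 members were called for the β-catenin effect in WT, 6 in KO, 29 and 23 for KO against WT with ERT2 and Cre-ERT2, and 10 for the difference of effects. It ended the calls of Acat2 and Dhcr7 for the β-catenin effect in KO. For the difference of effects it ended those of Mvk, Cyp51 and Dhcr7, and Fdft1, Acaca and Srebf1 were called instead. Median centring gave 10, 8, 32, 26 and 9 calls in the same order. It also moved the split of all genes for the β-catenin effect to 641 higher and 831 lower in WT and to 774 and 766 in KO. The smallest difference called in a member was -0.084 (Acly, upon β-catenin stabilization in WT). Without counts it is not known how far the closeness of replicates comes from the normalization or transformation of the deposited values.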
